A study of Mus musculus with 3 samples.

Results

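The genes described here encode the 6 MCM helicase subunits, Mcm2 to Mcm7, and the sliding clamp Pcna. They were taken by their Ensembl identifiers from the tables of an H3K36me3 CUT&Tag series, and all 7 were found among 24318 rows with an identifier. H3K36me3 is histone H3 trimethylated at lysine 36, and in CUT&Tag an antibody guides a transposase that tags the DNA beside the mark. The libraries came from epithelial cells of the fetal pancreas, sorted by flow cytometry on the surface protein EpCAM, from WT C57BL/6 mice at embryonic days E11.5, E13.5 and E15.5. The groups share strain, genotype and antibody and differ by stage, with 1 library each. How many embryos went into a library is not given in the labels. No SD, test or p-value could therefore be had, and every difference below is a size between single libraries that may be as large between repeats of a stage. In such bulk libraries a smaller share of cells with the mark and less of the mark per cell cannot be told apart.

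The MCM subunits form a ring that is loaded around DNA at replication origins before S phase, the step called licensing. With Cdc45 and the GINS complex the ring becomes the helicase that unwinds DNA at the fork. PCNA is a ring that slides along DNA and holds polymerases and repair enzymes on it. In dividing cells these genes are transcribed towards S phase under E2F transcription factors. H3K36me3 is written by SETD2, which travels with elongating RNA polymerase II, so the mark is known to lie over the bodies of transcribed genes.

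The genes lie on mouse chromosomes 1, 2, 5, 6, 8 and 16, placed here by the RefSeq table of GRCm38.p6, the assembly also called mm10. Mcm2 (ENSMUSG00000002870) is at chr6:88883474-88898780 and Mcm3 (ENSMUSG00000041859) at chr1:20802966-20820312. Mcm4 (ENSMUSG00000022673) is at chr16:15623897-15637400 and Mcm5 (ENSMUSG00000005410) at chr8:75109468-75128439. Mcm6 (ENSMUSG00000026355) is at chr1:128331575-128359705, Mcm7 (ENSMUSG00000029730) at chr5:138164583-138172111 and Pcna (ENSMUSG00000027342) at chr2:132249286-132253180. Several have a close neighbour. Only 43 bases separate Mcm4 from Prkdc, the gene of the catalytic subunit of the DNA-dependent protein kinase. Pcna lies 157 bases from Cds2 and 226 bases from Tmem230. Mcm7 overlaps Ap4m1 by 91 bases and lies 598 bases from Cops6. Around Mcm5 the table lists no other gene within 6000 bases. A window that reaches past Mcm4, Mcm7 or Pcna therefore also takes in signal of a neighbour.

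**Figure D1:**
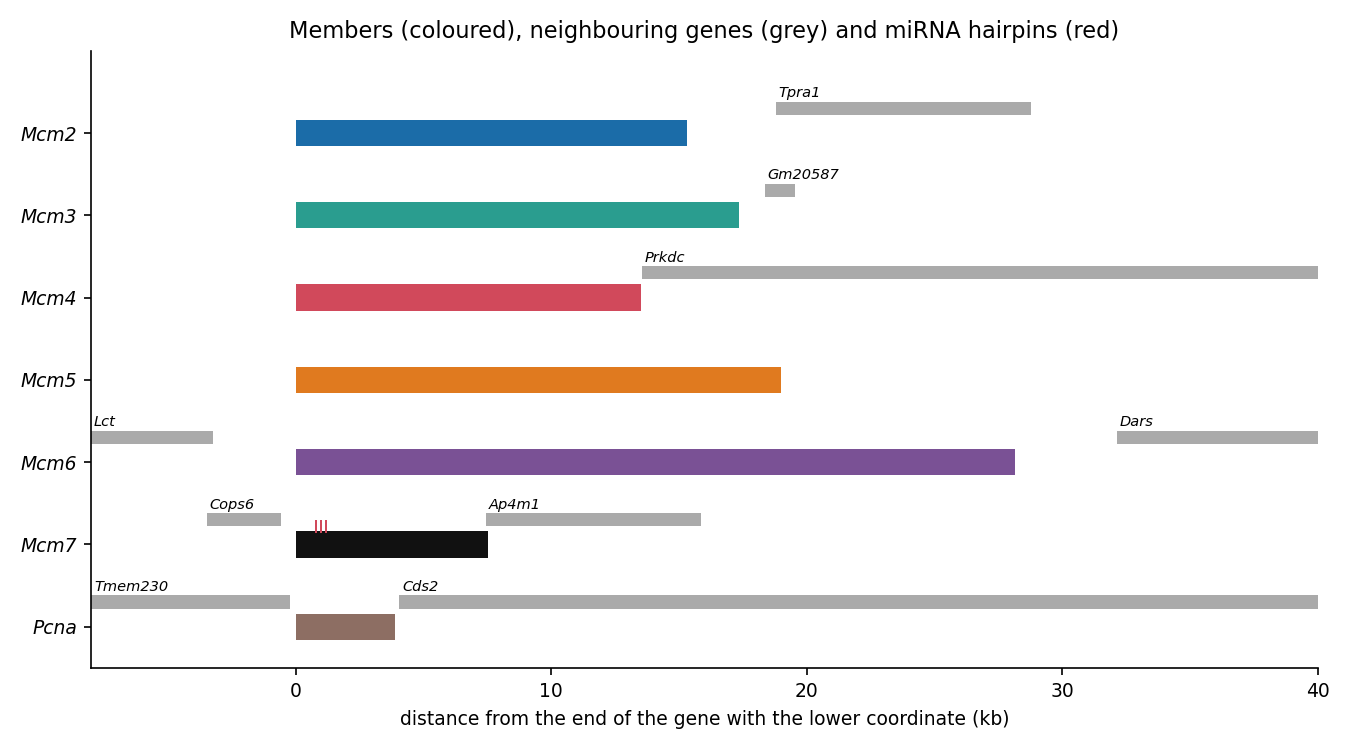
Spans of the 7 genes (coloured bars), their annotated neighbours (grey) and miRNA hairpins (red), by distance in kb from the end of each gene with the lower coordinate. Mcm4, Mcm7 and Pcna have a neighbour within 598 bases, and Mcm5 has none within 6000 bases.

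The 180 bases before the annotated starts of 5 of the genes are shown because E2F factors are the known regulators of this family and because the body signals of these genes lay far apart at E15.5. They are RefSeq sequences of build GRCm38.p6, written 5′ to 3′ on the gene's strand and ending at the base before the start. Capitals mark the letters of an E2F-type match (TTTCCCGC, TTTGGCGC, TTTGCCGC or TTTCGCGC) or of CCAAT, searched on both strands.
Mcm2, chr6:88898781-88898960, minus strand: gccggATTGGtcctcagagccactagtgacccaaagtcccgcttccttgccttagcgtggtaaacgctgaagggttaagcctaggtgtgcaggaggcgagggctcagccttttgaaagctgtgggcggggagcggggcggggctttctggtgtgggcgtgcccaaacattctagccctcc
Mcm3, chr1:20820313-20820492, minus strand: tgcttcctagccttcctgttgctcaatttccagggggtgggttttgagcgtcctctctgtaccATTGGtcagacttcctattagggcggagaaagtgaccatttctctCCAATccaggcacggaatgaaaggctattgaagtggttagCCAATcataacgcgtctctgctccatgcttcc
Mcm7, chr5:138171884-138172063, minus strand: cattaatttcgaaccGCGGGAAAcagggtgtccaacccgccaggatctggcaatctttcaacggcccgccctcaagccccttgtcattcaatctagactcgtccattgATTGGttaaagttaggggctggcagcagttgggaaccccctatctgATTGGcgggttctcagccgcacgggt
Mcm6, chr1:128359706-128359885, minus strand: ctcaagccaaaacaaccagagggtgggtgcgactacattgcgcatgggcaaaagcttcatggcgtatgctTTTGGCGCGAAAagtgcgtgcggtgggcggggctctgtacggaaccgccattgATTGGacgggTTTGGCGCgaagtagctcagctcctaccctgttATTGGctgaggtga
Mcm5, chr8:75109329-75109508, plus strand: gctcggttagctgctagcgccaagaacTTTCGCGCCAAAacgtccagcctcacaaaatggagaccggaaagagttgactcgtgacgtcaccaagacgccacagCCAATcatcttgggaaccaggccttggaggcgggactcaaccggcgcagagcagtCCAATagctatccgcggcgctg
An E2F-type match lay in the stretches of Mcm5, Mcm6 and Mcm7, which is 3 of the 6 genes with a promoter in the table when each is taken at its first listed start, where 1.44% of 32851 single promoters had one. Mcm7 has a second listed start, and neither its stretch nor its 300 bases held such a match. The matches of Mcm5 start at positions -153 and -149 and share bases. Those of Mcm6 at -110 and -106 also share bases, and a further one starts at -47. Mcm7 had its match at -165. Over the full 300 bases of a table entry, which reach 50 past the start, Mcm3 had matches as well, at 20 and 39, making 4 of 6 genes where 2.26% of promoters had one. CCAAT, which promoters of cell cycle genes often carry, was in the stretch of all 6, where 27.5% of promoters had it. The GC box GGGCGG was in 5 of 6, where 30.2% had it, and the exception was Mcm5. A match of letters does not show binding.

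Each gene has 3 values per library, in columns headed GB, PR and SE, which the headers do not spell out. GB is a mean signal per position over a window whose length can be recovered, because the summed signal was a whole multiple of a coverage step (0.162, 0.167 and 0.163 in the E11.5, E13.5 and E15.5 libraries). Exactly 1 length met this condition for each of the 7 genes. For 6 of them it equalled a RefSeq span: 15307 positions for Mcm2, 13504 for Mcm4, 18931 for Mcm5, 28131 for Mcm6, 7301 for Mcm7 and 3895 for Pcna. That span ran from a listed start to the end of the gene, except for Mcm4. Mcm4 has no listed start, and its window equalled the whole RefSeq gene. For Mcm3 the window of 17345 positions was 2 shorter than the RefSeq gene. GB is thus the gene body, introns included. PR behaves as a mean over 6000 positions and SE as a mean over 12000. No row had an SE sum below its PR sum, so SE was read as the PR window plus 6000 outer positions, whose place is not stated.

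Coverage was thin, and this limits every value. The body sums of the 7 genes ran from 142 to 1424 steps in the E11.5 library, from 4 to 1286 in the E13.5 library and from 34 to 3280 in the E15.5 library. Since a covered position takes at least 1 step, at most 23.2% of the Mcm7 body was covered at E15.5, the highest such bound in this group of genes. Over all rows, 12.9%, 14.8% and 20.3% had GB at 0 in stage order. The library medians of GB were 0.00432, 0.00421 and 0.00371 in stage order, those of PR 0.00394, 0.00368 and 0.00559, and those of SE 0.00448, 0.00416 and 0.00592.

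At E11.5 all 7 genes had a body signal above the median of their library. At E13.5 the 6 MCM genes were still above it, and Pcna was near the bottom. That median is over rows of all lengths, rows at 0 included. Among rows whose window was within 2-fold of the gene's length, Pcna lay at the 49.0 percentile at E11.5. At E13.5 Mcm4 lay at 47.0 and Mcm6 at 38.5 in such a ranking, and Mcm6 at 42.5 among rows above 0. At E15.5 the group lay far apart, with Mcm7, Mcm2 and Mcm3 at percentiles of 92.5 to 96.3 among all rows and Mcm4 and Mcm5 at 25.8 and 24.3. The highest GB was 2.89 times the lowest at E11.5 (Mcm7 and Pcna), 68.4 times at E13.5 (Mcm2 and Pcna) and 129 times at E15.5 (Mcm7 and Mcm5). The SD over the 7 genes on a log2 scale was 0.60, 1.15 and 2.09 in stage order, beside 1.33, 1.31 and 1.70 over all rows. The plot of levels shows the lines of Mcm4 and Mcm5 crossing below the others after E13.5.

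**Figure D2:**
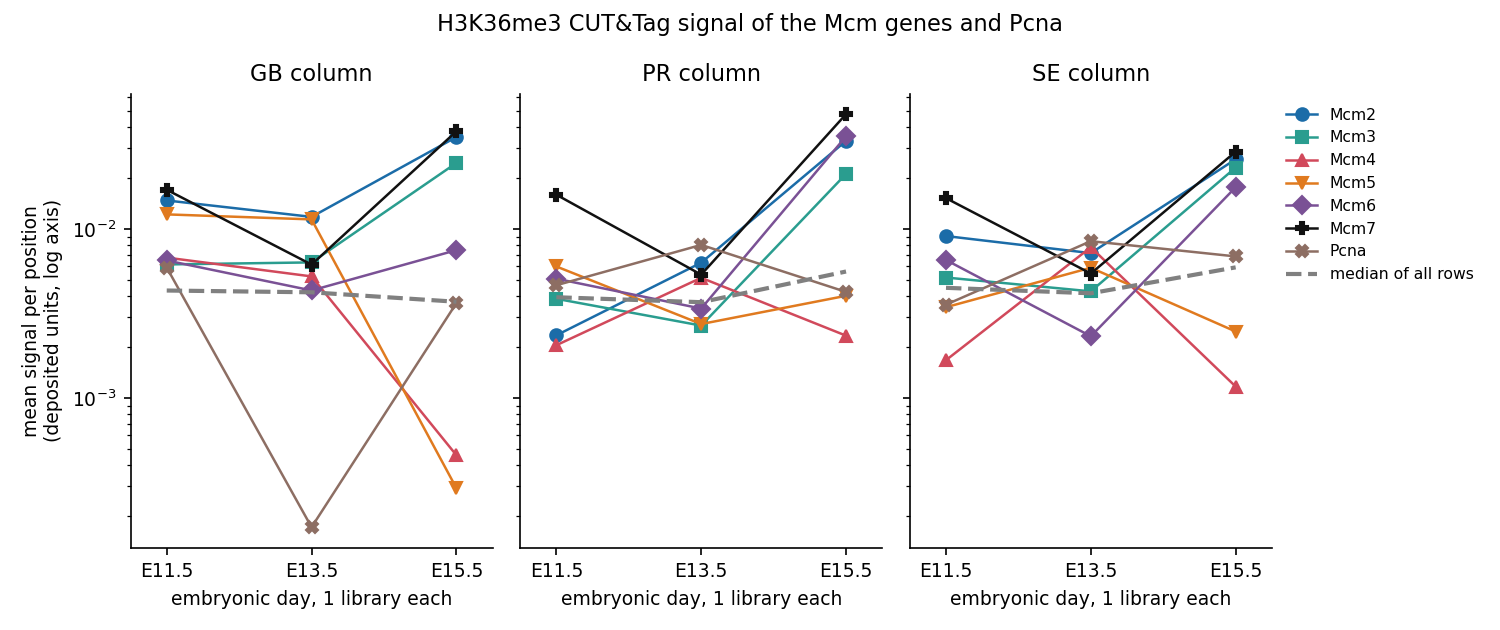
Signal of the 7 genes in the GB, PR and SE columns (mean per position in deposited units, log axis) at the 3 stages, 1 library each, with the median of all rows dashed. In GB at E15.5 Mcm2, Mcm3 and Mcm7 lie between 0.0245 and 0.0378, while Mcm4 lies at 0.000458 and Mcm5 at 0.000293.

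Mcm2 and Mcm5 are neighbours in the ring and form the gate through which DNA enters. Mcm2 had a GB of 0.0147 at E11.5, with 0.0118 at E13.5 and 0.0349 at E15.5, on percentiles of 93.0, 90.2 and 95.8. Mcm5 had a GB of 0.0122 at E11.5, with 0.0114 at E13.5 and 0.000293 at E15.5, on percentiles of 89.3, 89.5 and 24.3. The pair was alike at the earlier stages and far apart at E15.5. There the body of Mcm5 held 34 steps, so at most 0.180% of its positions were covered, against at most 7.52% at E11.5. Mcm3, the other neighbour of Mcm5 in the ring, had a GB of 0.00616, 0.00633 and 0.0245 in stage order, on percentiles of 65.4, 69.0 and 92.5. It was level between the earlier stages and high at E15.5.

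Mcm4, Mcm6 and Mcm7 form a core that can unwind DNA by itself in the test tube, and the body signals of the 3 differed. Mcm4, whose tail is phosphorylated by the Cdc7 kinase that fires origins, had a GB of 0.00676, 0.00523 and 0.000458 in stage order, on percentiles of 69.5, 60.0 and 25.8. Its E15.5 value rests on 38 steps over 13504 positions. Mcm6 had 0.00650, 0.00432 and 0.00748, on percentiles of 67.8, 51.1 and 69.6, and stayed in the middle range of its libraries. Mcm7 had 0.0170, 0.00615 and 0.0378, on percentiles of 94.9, 67.6 and 96.3. Its E13.5 value was the low one, and at E15.5 it was the highest of the 7 genes.

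The body of Mcm7 also holds the hairpins of Mir25, Mir93 and Mir106b, a cluster of miRNAs. They are shown because signal over them is counted in the Mcm7 body, so its GB is the value of host and miRNA genes alike. Their sequences are from RefSeq, build GRCm38.p6, with the seed (bases 2 to 8) in capitals.
mmu-miR-106b-5p, chr5:138165787-138165807, minus strand: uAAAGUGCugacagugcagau
mmu-miR-93-5p, chr5:138165574-138165596, minus strand: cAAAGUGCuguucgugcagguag
mmu-miR-25-3p, chr5:138165332-138165353, minus strand: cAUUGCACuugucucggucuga
The seed is shared by mmu-miR-106b-5p and mmu-miR-93-5p, and mmu-miR-25-3p has another.

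Pcna, the clamp, has the shortest body of the group at 3895 positions. Its GB was 0.00590, 0.000172 and 0.00364 in stage order, on percentiles of 63.5, 16.3 and 49.5. These rest on sums of 142, 4 and 87 steps. The E13.5 value is a trace, while the PR window of Pcna in the same library held 288 steps, a log2 ratio of PR over GB of 2.95 at the 96.8 percentile of all rows. Since the whole body held 4 steps, at most 4 of those 288 lay within the gene. The rest lay outside Pcna, in a window that is longer than its body.

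In PR the genes that were high at E15.5 were those with high bodies, with Mcm6 added. Mcm2 had a PR of 0.00235, 0.00631 and 0.0331 in stage order, on percentiles of 38.1, 68.0 and 90.7. Mcm3 had 0.00386, 0.00268 and 0.0211, on percentiles of 49.6, 41.4 and 80.5. Mcm5 had 0.00599, 0.00274 and 0.00402, on percentiles of 62.8, 41.9 and 45.7. Mcm2 and Mcm3 were thus high at E15.5 and Mcm5 was not. Mcm4 had 0.00205, 0.00514 and 0.00234, on percentiles of 35.6, 60.6 and 40.6. Mcm6 had 0.00507, 0.00338 and 0.0352, on percentiles of 57.6, 47.3 and 91.7. Mcm7 had 0.0159, 0.00536 and 0.0477, on percentiles of 93.9, 62.2 and 96.3. Of these 3 helicase core genes, Mcm6 and Mcm7 were high at E15.5. Pcna had 0.00464, 0.00804 and 0.00424, on percentiles of 54.8, 77.3 and 46.4, with its highest value at E13.5. Across the 7 genes, which are not independent replicates and share a library, Spearman's rho of GB and PR was 0.29, -0.29 and 0.86 in stage order, beside 0.44, 0.41 and 0.57 over all 24318 rows.

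Mcm6 differed from the other genes high in PR at E15.5 in how its signal was placed. Its log2 ratio of PR over GB was -0.31, -0.28 and 2.10 in stage order, the last at the 85.7 percentile of all rows. All 1298 steps of its SE window at E15.5 lay in the PR window, and the outer positions had none. The same ratio at E15.5 was -0.07 in Mcm2, -0.21 in Mcm3 and 0.33 in Mcm7, so their PR and body signals were close. Mcm5 and Mcm4 had ratios of 1.96 and 1.19 at E15.5, over bodies of 34 and 38 steps.

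SE gave nearly the order of GB at E15.5. Mcm2 had an SE of 0.00907, 0.00719 and 0.0258 in stage order, on percentiles of 82.2, 75.6 and 92.9. Mcm3 had 0.00515, 0.00427 and 0.0231, on percentiles of 56.5, 51.2 and 90.5. Mcm5 had 0.00344, 0.00589 and 0.00247, on percentiles of 39.3, 66.2 and 33.8. Mcm5 was highest at E13.5, unlike Mcm2 and Mcm3. Mcm4 had 0.00167, 0.00779 and 0.00117, on percentiles of 21.4, 79.1 and 26.6. Mcm6 had 0.00654, 0.00232 and 0.0176, on percentiles of 67.9, 28.6 and 83.9. Mcm7 had 0.0152, 0.00544 and 0.0286, on percentiles of 96.4, 62.4 and 94.5. Mcm4 was thus highest at E13.5, where Mcm6 and Mcm7 were lowest. Pcna had 0.00356, 0.00846 and 0.00687, on percentiles of 40.7, 82.5 and 54.3. In the outer positions alone Mcm3 was the highest at E15.5, with 0.0250, and Mcm4 and Mcm6 were at 0.

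**Figure D3:**
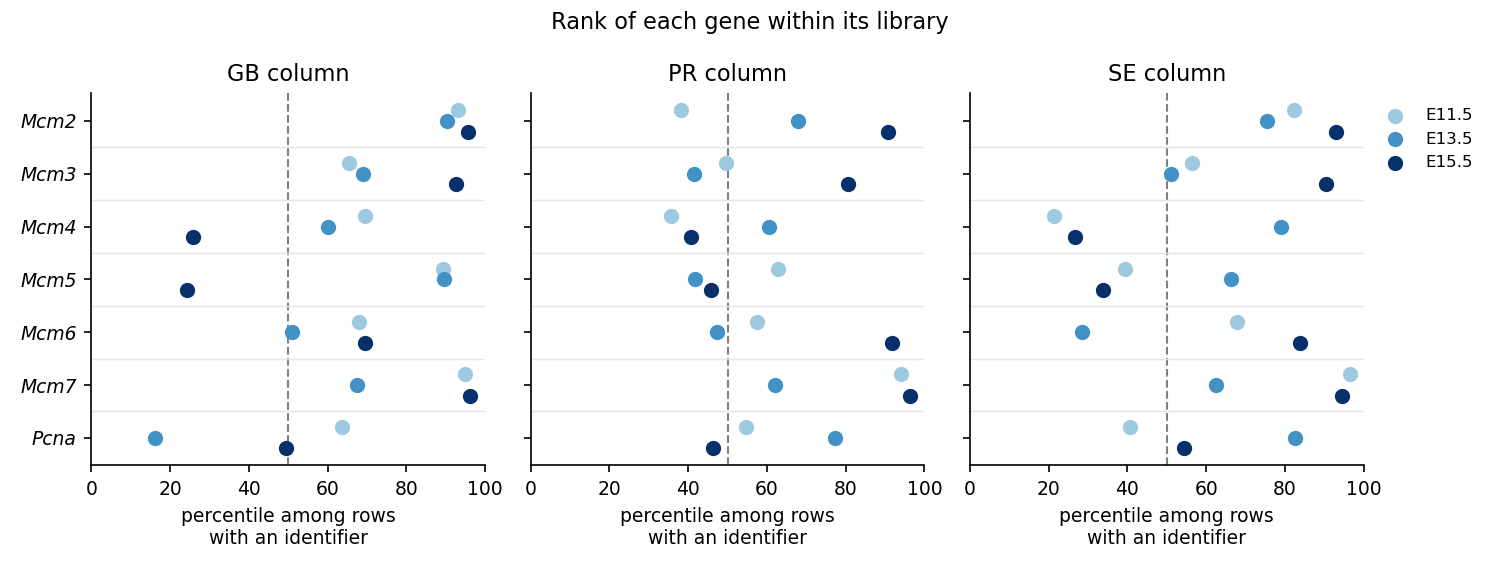
Percentile of each gene among the 24318 rows with an identifier of its library, for GB, PR and SE, with 1 point per stage (darker is later) and the median dashed. At E15.5 Mcm2, Mcm3 and Mcm7 are at 80.5 or above in all 3 columns, and Mcm4 and Mcm5 are at 45.7 or below.

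The stages were then compared as log2 ratios of the value plus 0.001, later over earlier. A gene was counted where it was at least 2-fold apart and its higher value reached a floor, the median of all values of that column (0.00413 for GB, 0.00407 for PR and 0.00460 for SE). For E13.5 over E11.5 in GB, Pcna (-2.56) and Mcm7 (-1.34) were at least 2-fold lower, which is 2 of 7 genes where 19.4% of 16346 rows were. None was at least 2-fold higher, where 17.2% of rows were (36.6% in either direction). The other 5 genes lay between -0.50 (Mcm6) and 0.03 (Mcm3). In PR, of 6 genes at the floor, Mcm2 (1.13) and Mcm4 (1.01) were higher, where 28.8% of rows were. Mcm7 (-1.41) was lower, where 32.8% were (61.5% in either direction). In SE, Mcm4 (1.72) and Pcna (1.05) were higher, where 19.9% were. Their SE windows held 558 and 606 steps at E13.5, against 422 and 4 in their bodies. Part of that SE signal of Mcm4 and nearly all of that of Pcna thus lay outside the gene. Mcm6 (-1.19) and Mcm7 (-1.33) were lower, where 24.8% were (44.8% in either direction). Mcm7 was the 1 gene at least 2-fold lower in all 3 columns, but with a pseudocount of 0.005 it was at -0.98 in GB and -0.95 in SE and counted in PR alone. With that pseudocount Mcm2 and Mcm4 no longer counted in PR, nor did Mcm4, Pcna and Mcm6 in SE, while Pcna still counted in GB at -1.08. Under quantile normalization Mcm5 counted as lower in PR too.

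For E15.5 over E13.5 in GB, Mcm7 (2.44), Mcm3 (1.80) and Mcm2 (1.49) were at least 2-fold higher, which is 3 of 6 genes at the floor where 27.6% of 16006 rows were. Mcm5 (-3.26) and Mcm4 (-2.10) were at least 2-fold lower, where 22.1% were (49.7% in either direction). Mcm6 was at 0.67, and Pcna did not reach the floor. Under quantile normalization Mcm2 (0.61) no longer counted as higher in GB. With a pseudocount of 0.005 Mcm4 (-0.91) no longer counted as lower, and Mcm5 was at -1.63. In PR, Mcm6 (3.05), Mcm7 (2.94), Mcm3 (2.59) and Mcm2 (2.22) were higher, where 52.2% of rows were. None of the 6 genes at the floor was lower, where 24.7% were (76.8% in either direction). After each library was divided by its median, or after quantile normalization, Mcm4 and Pcna counted as lower in PR. Of all rows counted in PR, 67.9% were higher, beside 57.2% and 50.2% under those scalings. In SE, Mcm6 (2.49), Mcm7 (2.20), Mcm3 (2.19) and Mcm2 (1.71) were higher, where 45.7% of rows were. Mcm4 (-2.02) was lower, where 17.9% were (63.6% in either direction). Mcm5 counted as lower too under both scalings, and Mcm2 no longer counted as higher under quantile normalization. Of all rows counted in SE, 71.9% were higher, beside 56.3% and 49.8% under the scalings.

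E15.5 over E11.5, which shares the E15.5 library with the comparison above, gave Mcm3 (1.83), Mcm2 (1.19) and Mcm7 (1.10) at least 2-fold higher in GB, where 26.5% of 16048 rows were. Mcm5 (-3.35) and Mcm4 (-2.41) were at least 2-fold lower, where 22.8% were (49.4% in either direction). Mcm6 was at 0.18 and Pcna at -0.57. Under quantile normalization Mcm2 (0.36) and Mcm7 (0.21) no longer counted as higher, and with a pseudocount of 0.005 Mcm7 (0.96) did not either. That pseudocount gave -1.70 for Mcm5 and -1.11 for Mcm4. The median of the 7 genes was 0.18, beside 0.14 over the rows compared. In PR, Mcm2 (3.35), Mcm6 (2.58), Mcm3 (2.19) and Mcm7 (1.52) were higher, where 50.0% of 17716 rows were. None of the 6 genes at the floor was lower, where 26.0% were (76.0% in either direction). Mcm7 did not count under quantile normalization, and of all rows counted 65.8% were higher, beside 57.4% and 50% under the scalings. In SE, Mcm3 (1.97), Mcm2 (1.41) and Mcm6 (1.30) were higher, where 42.7% of rows were. None of the 5 genes at the floor was lower, where 19.7% were (62.5% in either direction). Mcm6 did not count under either scaling or with the pseudocount of 0.005 there and Mcm2 not under quantile normalization, while the share of higher rows was 68.4%, beside 56.9% and 50.3%.

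**Figure D4:**
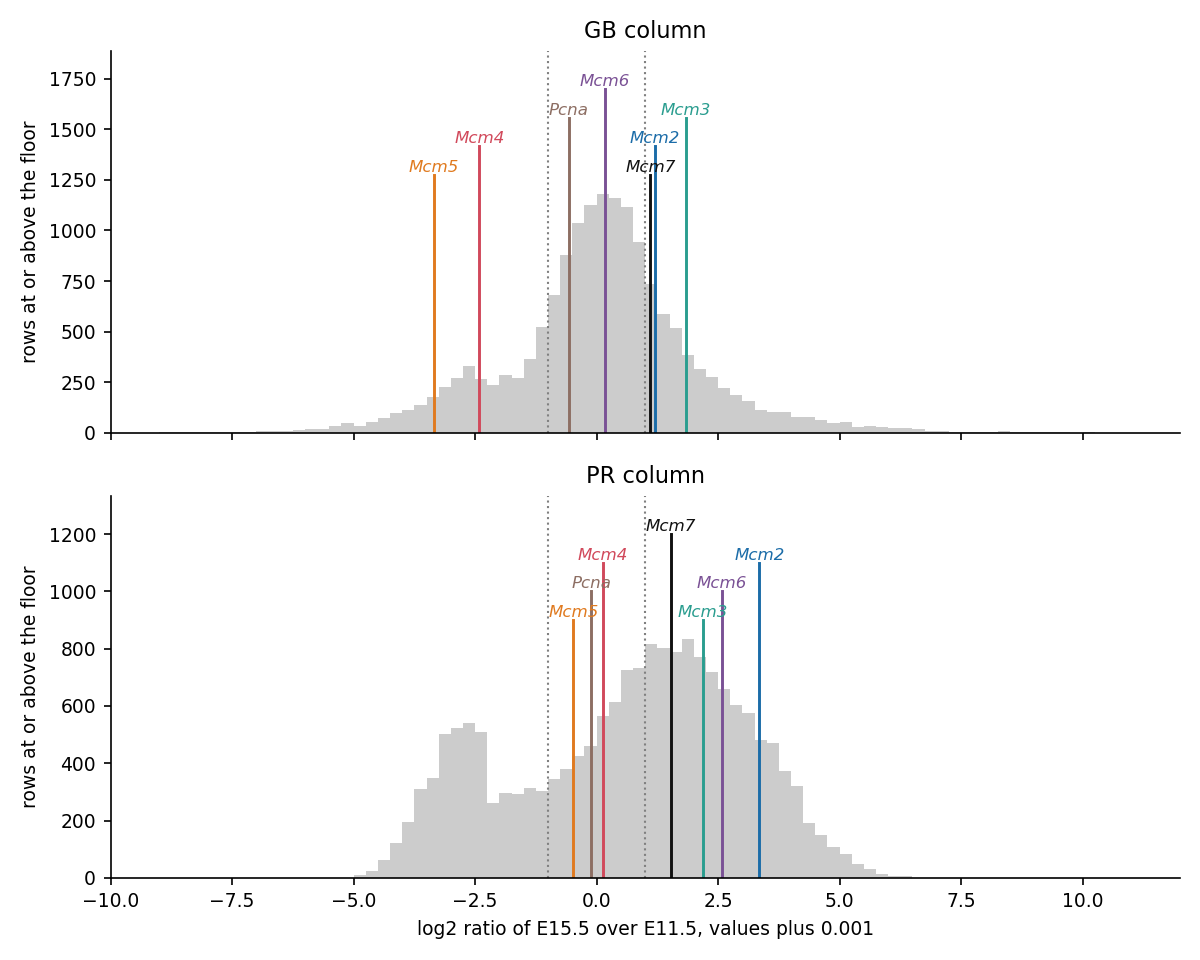
Log2 ratio of E15.5 over E11.5 (value plus 0.001) for all rows at the floor (grey histogram) and for the 7 genes (coloured lines; Mcm4 in PR is below the floor), with 2-fold dotted. In GB Mcm5 and Mcm4 lie at -3.35 and -2.41, and in PR no gene lies below -0.48.

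Body signals of short genes were apart by 2-fold more often, so the GB ratios of E15.5 over E11.5 were also ranked among rows whose window was within 2-fold of each gene's length. At least 2-fold differences made up 74.7% of the rows near the length of Pcna, 63.1% of those near Mcm7 and 43.6% of those near Mcm5. Mcm5 lay at the 0.472 percentile of 5187 such rows, against 5.01 among all rows compared. Mcm4 lay at 6.83 among 4810 rows. These were the 2 genes nearest the low end. Mcm3 lay at 90.8 among 5095 rows, Mcm2 at 77.4 among 4977 and Mcm7 at 63.3 among 3847. Ranked by its E15.5 level among rows of like length, Mcm5 lay at the 6.36 percentile and Mcm4 at 10.6, with Mcm2 at 97.8 and Mcm3 at 94.6. Only rows with 1 recovered length entered these ranks, and that needs body signal above 0 in at least 2 libraries. Leaving out rows at 0 at E15.5, whatever their length, gave 4.95 for Mcm5, 6.90 for Mcm4, 94.7 for Mcm2 and 90.6 for Mcm3. These last ranks are of E15.5 levels, and the ratios were not ranked in that way. How far the lower ranks of Mcm5 and Mcm4 among rows of like length went with length was not tested.

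The rows most like the median profile of the 7 genes, by Euclidean distance over the 9 log2 values of 3 stages, were ENSMUSG00000035325 (distance 0.546) and ENSMUSG00000031358 (distance 0.743), which the sources used here do not pair with names. Of the genes themselves Mcm6 lay nearest to that profile, at 1.46, and Mcm4 furthest, at 5.09.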

How the data were processed

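For every stage the authors deposited a table of signal, the mean coverage per position in windows headed PR, GB and SE. Per the submitters' processing notes, Bowtie2 2.4.2 and mm10 were used. Steps not given in the sources used here include read filtering, counting and scaling. The labels name a mean depth of 20 M reads, and the depth of each table is unknown. Rows without an identifier (4.61% of 25493) were left out.

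Values were used as deposited. Coverage steps were recovered with a tolerance of 0.05 steps, and lengths of 50 to 60000 positions were searched, giving a unique length for 12627 rows. Log2 ratios used a pseudocount of 0.001, and no test was run with 1 library per stage. Alternatives were pseudocounts of 0.0005 and 0.005, scaling by library medians, quantile normalization, a 1.5-fold threshold, other sets of rows and leaving out Pcna. All members are named in each comparison, and the 2 rows nearest their median profile by identifier. The members, lists and settings were chosen with earlier results of these data known. Member names came with the rule that chose them. The reference table holds 0 Ensembl identifiers, so lists of other replication genes and cell type markers were not analysed here and the labelled cell type was not checked. The ratio and length steps were tested on simulated data. Python 3.11.15, numpy 2.4.6, pandas 2.3.3, scipy 1.17.1 and matplotlib 3.10.9 were used.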

Additional observations from a re-analysis of the deposited data

How the results depend on the processing

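Of 108 recomputed medians, counts and percentiles over the 7 genes, 96 counted as unchanged. For counts and percentiles this means within 1.5 times the reported value. For median log2 ratios it means that the ratio itself moved by at most 1.5-fold, so a median near 0 could change by much of its size. The GB median of E15.5 over E11.5 (0.18 as reported) was 0.64 without Pcna and 0.06 under quantile normalization, and each counted as unchanged. No paired analysis was possible because no stage has a second library, and for the same reason no replicate could be left out. Under quantile normalization the median log2 ratio of E15.5 over E13.5 was 0.61 in GB (1.49 as reported), 1.05 in PR (2.22) and 0.76 in SE (1.71), and that of E15.5 over E11.5 was 0.34 in PR (1.52). It left 3 genes apart in GB and 1 in SE for E15.5 over E11.5, in place of 5 and 3. With a pseudocount of 0.005 the GB median of E15.5 over E13.5 was 0.74, and 1 gene in GB, 1 in PR and 0 in SE were apart for E13.5 over E11.5, in place of 2, 3 and 4. That pseudocount also ended the GB calls of Mcm4 for E15.5 over E13.5 and of Mcm7 for E15.5 over E11.5. The 1.5-fold threshold gave 5 genes in PR for E13.5 over E11.5 and 5 in SE for E15.5 over E11.5. Scaling by library medians shifted the median PR ratio of all rows compared by -0.54 for E15.5 over E13.5 and by -0.47 for E15.5 over E11.5, and quantile normalization by -1.01 and -0.89. Of 252 recomputed ratios of single genes 43 moved by more than 1.5-fold, and none of the counted genes changed direction. Among ratios below 2-fold 5 turned sign. Under quantile normalization these were SE of E15.5 over E11.5 in Mcm7 (-0.19, reported 0.87) and Mcm4 (0.29, reported -0.30) and GB of E13.5 over E11.5 in Mcm5 (0.02, reported -0.09). Under scaling by library medians they were PR of E15.5 over E11.5 in Mcm4 (-0.21, reported 0.13) and PR of E15.5 over E13.5 in Mcm5 (-0.04, reported 0.43). In GB, Mcm3 counted as higher and Mcm5 as lower at E15.5 against both other stages under the pseudocount of 0.005, both scalings and the 1.5-fold threshold. The low body values of Mcm4 and Mcm5 at E15.5 and of Pcna at E13.5 rest on 38, 34 and 4 coverage steps, which limits their ratios most.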
